A study of Mus musculus with 42 samples.

Results

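Expression of 10 genes that write, place or remove repressive chromatin marks was examined in skeletal muscle precursor cells. The members were the rows of the count files with the symbols Ezh1, Ezh2, Eed, Suz12, Jarid2, Dnmt1, Dnmt3a, Dnmt3b, Uhrf1 and Tet1, which makes 10 genes of 24466 symbols. All 10 symbols were found, and all 10 were among the 14836 genes that passed the filter on low counts.

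RNA-seq libraries were available for 3 groups. The +Dox group (3 libraries) was iPax7 myogenic progenitors, a line derived from mouse embryonic stem cells in which doxycycline (Dox, 0.75 µg/ml) turns on a Pax7 transgene. These cells had been sorted from embryoid bodies as PDGFαR-positive, Flk-1-negative cells and were kept with basic FGF. The -Dox group (2 libraries) was the same cells 3 days after Dox was washed out, still with FGF, and the Satellite cells group (3 libraries) was muscle stem cells sorted straight from the skeletal muscle of Pax7-ZsGreen reporter mice and labelled in vivo. All iPax7 material came from 1 engineered line, the age of the mice is not given in the labels, and nothing in the labels says whether the replicate files of a group came from separate cultures or animals. The p-values therefore measure the spread between these libraries, which may be technical.

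Libraries held between 39010958 and 54674619 reads on genes. Pax7 averaged 271 ± 26.7 CPM (counts scaled to library size by TMM; SD, n = 3) in +Dox, 5.18 ± 0.732 (n = 2) in -Dox and 126 ± 49.3 (n = 3) in satellite cells, while Myog, a regulator of muscle differentiation, averaged 87.8, 3700 and 51.8 CPM. Pou5f1, a marker of pluripotent cells, had no count in any library. The satellite cell libraries also held marker RNA with lower summed levels in iPax7 cells. Summed levels were 377 to 519 CPM for 8 endothelial markers (2.11 to 20.1 in iPax7), 241 to 591 CPM for 9 blood cell markers (0.0193 to 3.01) and 1530 to 2950 CPM for 8 fibroblast markers (88.3 to 266). Of the 8 fibroblast markers, 6 were called lower in +Dox than in satellite cells. Ly6a went the other way on average, with 107 CPM in +Dox and 55.5 CPM in satellite cells. All 8 endothelial and all 8 fibroblast markers had counts in every satellite cell library. Reads that aligned to several places made up 23.6% to 30.7% of satellite cell libraries and 7.11% to 7.6% of iPax7 libraries. The part these differences play in any comparison with satellite cells was not tested. +Dox replicate 3 was the lowest of its group for Ezh1, Suz12, Dnmt1, Dnmt3a, Dnmt3b, Uhrf1 and Tet1 and the highest for Eed. Satellite cells replicate 1 was the highest of its group for Ezh1, Jarid2, Eed, Dnmt1, Uhrf1 and Tet1 and the lowest for Ezh2, Suz12 and Dnmt3a. Such extremes are not particular to these libraries. In +Dox, replicate 1 was the highest for Ezh1, Suz12, Dnmt1, Dnmt3a, Dnmt3b, Uhrf1 and Tet1 and the lowest for Ezh2 and Jarid2. Over all genes, +Dox replicate 3 correlated with replicates 1 and 2 at r = 0.976 and 0.98, beside 0.993 between replicates 1 and 2. Satellite cells replicate 1 correlated at 0.958 and 0.959, beside 0.967 between replicates 2 and 3. Results that rest on +Dox replicate 3 or Satellite cells replicate 1 are given with and without them.

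Polycomb repressive complex 2 (PRC2) places methyl groups on lysine 27 of histone H3, and its trimethylated form, H3K27me3, marks silent developmental genes. In muscle precursors this mark is known for holding differentiation genes silent, and Ezh2 is known to give way to its relative Ezh1 as many cell types stop dividing and differentiate. DNA methylation at CpG sites is laid down by the de novo enzymes Dnmt3a and Dnmt3b, copied to the new strand after each round of replication by Dnmt1 with its recruiting factor Uhrf1, and removed through oxidation by the Tet enzymes.

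After removal of Dox the maintenance pair fell. Dnmt1, which copies methylation onto newly made DNA, and Uhrf1, which binds hemimethylated DNA and brings Dnmt1 to it, were lower in -Dox than in +Dox. The other 8 members did not pass the test. In all, 2 of 10 members were called lower against 3.04% of all genes tested, and 0 of 10 were called higher against 4.66% (edgeR quasi-likelihood test, adjusted p under 0.05). At an unadjusted p under 0.05, 1 member was higher and 4 were lower, and DESeq2 called 0 higher and 2 lower. The median log2 fold change of the 10 members was -0.70, beside -0.0049 over all genes tested. The libraries of both groups did not overlap for 7 of 10 members (5 lower and 2 higher in -Dox), beside 45.3% of all genes tested.

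**Figure D1:**
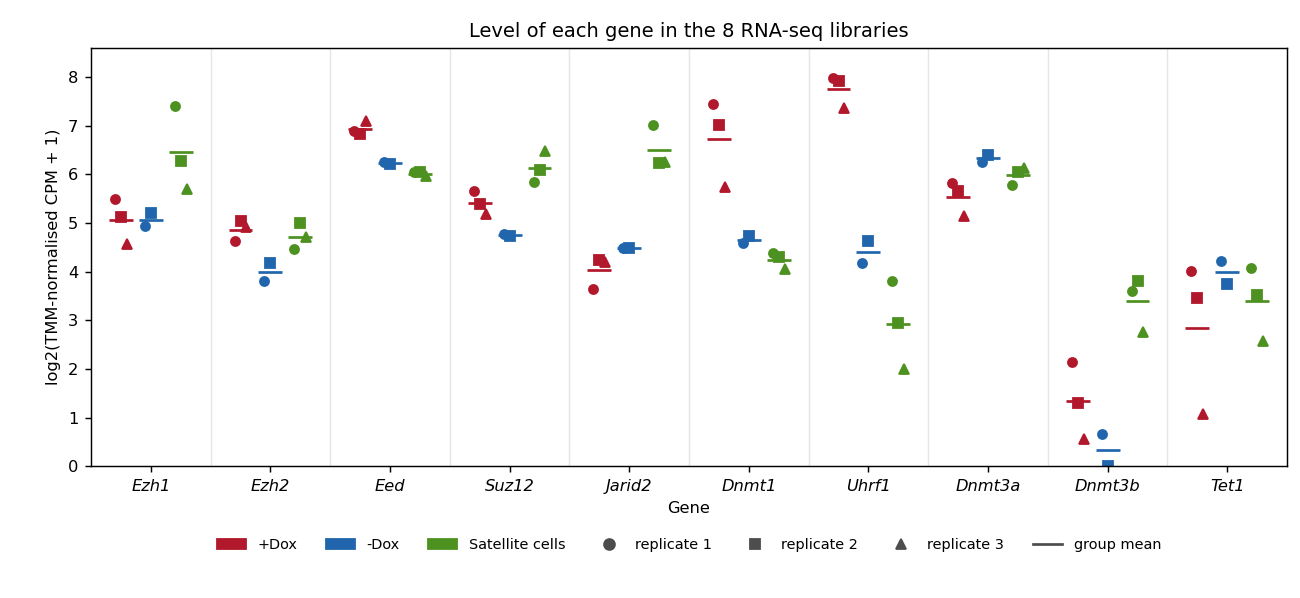
Level of each of the 10 genes as log2(TMM-normalised CPM + 1) on the vertical axis, by gene on the horizontal axis, with 1 point per library colored by group, shaped by replicate, and a line at the group mean. Uhrf1 was at 165 to 251 CPM in the 3 +Dox libraries and at most 23.6 CPM in the other 5, and Dnmt1 at 52.2 to 174 CPM against at most 25.6 CPM.

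Uhrf1 lies on chromosome 17 from base 56442744 to 56462909 and Dnmt1 on chromosome 9 from base 20711650 to 20757317 (NCBIM37, the mm9 build). Uhrf1 was measured at 251, 241 and 165 CPM in the +Dox libraries, 17.1 and 23.6 CPM in the -Dox libraries and 13, 6.75 and 3.01 CPM in satellite cells. The 3 groups did not overlap, in the order +Dox, -Dox, satellite cells. The fall after Dox removal was 10.7-fold (log2 fold change -3.42 ± 0.591, SE; adjusted p = 0.00745, edgeR). With 1 -Dox library left out, so that the remaining one was assumed to vary like the other groups, the log2 fold change was -3.21 (without -Dox replicate 1, adjusted p = 0.0879) or -3.66 (without -Dox replicate 2, adjusted p = 0.0569), and the call was lost.

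Dnmt1 was measured at 174, 128 and 52.2 CPM in +Dox, 23.1 and 25.6 CPM in -Dox and 19.9, 18.7 and 15.6 CPM in satellite cells. Every +Dox library was above every other library, with the third +Dox library well below the other two. The fall after Dox removal was 4.84-fold (log2 fold change -2.27 ± 0.482; adjusted p = 0.0208, edgeR). The call was lost without +Dox replicate 1 (-1.88, adjusted p = 0.0611), +Dox replicate 2 (-2.19, adjusted p = 0.0613), -Dox replicate 1 (-2.21, adjusted p = 0.172) or -Dox replicate 2 (-2.33, adjusted p = 0.139). Leaving out +Dox replicate 3, alone or with Satellite cells replicate 1, kept the calls of Dnmt1 and Uhrf1.

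Proliferation markers moved the same way as this pair. Of 28 markers tested, 22 were lower in -Dox and 0 higher (median log2 fold change -3.16), at an unadjusted p under 0.05 there were 25 lower and 0 higher, and DESeq2 called 25 lower and 0 higher. Their summed level was 3920 to 4250 CPM in +Dox, 572 to 578 CPM in -Dox and 474 to 620 CPM in satellite cells, so the summed level, like Dnmt1 and Uhrf1, was highest in the +Dox libraries. Single markers differed from the sum: E2f8, a repressor of the E2F family, was at 6.19 to 11.3 CPM in +Dox and 15.1 to 16.5 CPM in -Dox, and Pcna, the replication clamp, was at 187 to 255 CPM in +Dox and 166 to 245 CPM in satellite cells, both named after their values were seen. Mki67, which marks cycling cells, fell from 131 ± 23.1 to 7.25 ± 6.14 CPM (log2 fold change -4.18 ± 0.733, adjusted p = 0.00802), and Plk1, a mitotic kinase, fell by 4.04 on the log2 scale. Muscle differentiation markers moved the other way, with a summed level of 254 to 341 CPM in +Dox, 47200 to 48500 CPM in -Dox and 217 to 368 CPM in satellite cells. The part that the number of dividing cells plays in the levels of Dnmt1 and Uhrf1 was not tested. In bulk libraries, fewer cells with a transcript and less transcript per cell cannot be told apart.

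The enzymes of de novo methylation did not pass the test after Dox removal. Dnmt3a was measured at 55.6, 49.6 and 34.2 CPM in +Dox, 75.0 and 83.9 CPM in -Dox and 53.9, 65.2 and 69.4 CPM in satellite cells. Both -Dox libraries were above all others, but the difference from +Dox missed the threshold (log2 fold change 0.77 ± 0.296, adjusted p = 0.162). Transcripts on the opposite strand share exon sequence with Dnmt3a (Gm10485), Ezh2 (Gm17629) and Suz12 (Gm16706), and the strand setting of the counting is not given in the sources used here, so their reads cannot be told apart.

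Dnmt3b, the second de novo enzyme, had few reads in iPax7 cells. Its counts were 214, 94 and 25 in +Dox (3.40, 1.47 and 0.481 CPM), 30 and 0 in -Dox (0.583 and 0 CPM) and 398, 459 and 209 in satellite cells (11.08, 13.01 and 5.83 CPM). The count of 0 allows a level of up to 0.0586 CPM, a limit that covers counting error only. All 3 satellite cell libraries were above every iPax7 library, while +Dox and -Dox overlapped (log2 fold change -2.60 ± 1.43, adjusted p = 0.34). The Dnmt3a to Dnmt3b ratio was taken from counts summed over each group and is given as a description. Per kb of exon it was 7.78 in +Dox, 83.4 in -Dox and 1.94 in satellite cells, and by counts alone 25.4, 272 and 6.31. The -Dox ratio rests on 30 Dnmt3b reads in 1 library and was 39.5 per kb without the other.

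Tet1, which oxidizes methylated cytosine as a step towards its removal, was low and uneven within groups. It was measured at 15.1, 10.1 and 1.12 CPM in +Dox, 17.7 and 12.4 CPM in -Dox and 15.9, 10.5 and 4.99 CPM in satellite cells. The 3 groups overlapped, and no comparison passed the test (adjusted p = 0.699, 0.819 and 0.661 for -Dox against +Dox, +Dox against satellite cells and -Dox against satellite cells). The +Dox against satellite cells difference was -0.26 ± 0.79 on the log2 scale and changed sign to 0.26 without +Dox replicate 3.

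The PRC2 members Eed, Suz12 and Ezh2 were lower in both -Dox libraries than in every +Dox library, and each missed the threshold. Of all genes tested, 22.7% were lower in -Dox without overlap. Other PRC2 subunits differed: Rbbp4 was higher in -Dox (593 to 640 CPM, beside 442 to 474 in +Dox). Rbbp7 was lower (175 to 212 CPM, beside 303 to 424 in +Dox), and neither of these was called. Eed, which reads H3K27me3 and is needed for PRC2 activity, was measured at 117, 113 and 136 CPM in +Dox, 75.4 and 73.5 CPM in -Dox and 65.5, 64.9 and 61.2 CPM in satellite cells. The 3 groups did not overlap, and the difference between -Dox and +Dox was -0.71 ± 0.244 (adjusted p = 0.117). Suz12, the scaffold of the complex, was measured at 49.3, 41.3 and 35.6 CPM in +Dox, 26.5 and 25.8 CPM in -Dox and 56.3, 67.6 and 88.2 CPM in satellite cells. Its groups did not overlap either, with satellite cells highest and -Dox lowest (-Dox against +Dox, -0.69 ± 0.311, adjusted p = 0.239).

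Ezh2, the methyltransferase of PRC2 in dividing cells, was measured at 23.7, 31.8 and 29.3 CPM in +Dox, 12.98 and 17.24 CPM in -Dox and 21.1, 31.0 and 25.1 CPM in satellite cells. Both -Dox libraries were below all others, at 0.535 of the +Dox level, and the difference missed the threshold (-0.90 ± 0.353, adjusted p = 0.172). Ezh1, the alternative methyltransferase, was measured at 44.2, 33.9 and 22.7 CPM in +Dox, 29.5 and 36.1 CPM in -Dox and 169, 76.3 and 51.2 CPM in satellite cells. The +Dox and -Dox libraries were interleaved (log2 fold change -0.035 ± 0.494), and all satellite cell libraries were higher. Jarid2, which helps bring PRC2 to chromatin, was measured at 11.5, 17.9 and 17.4 CPM in +Dox, 21.3 and 21.6 CPM in -Dox and 127, 74.1 and 75.6 CPM in satellite cells. Satellite cells stood far above both iPax7 groups for Jarid2, and -Dox was slightly above +Dox without passing the test (0.46 ± 0.349, adjusted p = 0.52).

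Levels per kb of exon (normalised CPM divided by the length of all annotated exons of the gene) allowed the members to be set against each other. That length ran from 2.218 kb for Eed to 16.642 kb for Dnmt3a and need not match the transcripts expressed, so the ranks depend on it. In +Dox, Eed (51.1 to 61.2) and Uhrf1 (38.7 to 58.9) were the most abundant and overlapped, followed by Dnmt1 (9.92 to 33.0) and Suz12 (7.2 to 9.97). In -Dox, Eed (33.2 to 34.0) was above the other 9, and Suz12, Dnmt3a, Dnmt1, Uhrf1 and Ezh1 lay together between 3.97 and 5.55. In satellite cells Eed (27.6 to 29.5) was again highest, followed by Suz12 (11.4 to 17.8), Ezh1 (6.89 to 22.7) and Jarid2 (7.62 to 13.1), which overlapped. Dnmt3b and Tet1 were the lowest members per kb in both iPax7 groups. In satellite cells Tet1 (0.339 to 1.08), Uhrf1 (0.707 to 3.05) and Dnmt3b (1.14 to 2.55) were the lowest and overlapped.

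The balance between both methyltransferases was read as the log2 ratio of Ezh2 to Ezh1 counts within each library, which needs no normalization. The ratio of levels per kb was 0.644, 1.13 and 1.55 in +Dox, 0.528 and 0.574 in -Dox and 0.15, 0.488 and 0.588 in satellite cells. Ezh2 exceeded Ezh1 per kb in 2 of the 8 libraries, both +Dox, and the 3 +Dox libraries were above the other 5. By counts the ratio in +Dox replicate 2 was 0.938, beside 1.13 per kb, so which gene is ahead there depends on the exon lengths. The log2 ratio of counts was -0.21 ± 0.641 (SD, n = 3) in +Dox, -1.13 ± 0.085 (n = 2) in -Dox and -1.78 ± 1.07 (n = 3) in satellite cells. The balance was 1.89-fold lower in -Dox than in +Dox (two-sided exact permutation p = 0.2), 2.97-fold higher in +Dox than in satellite cells (exact permutation p = 0.1) and 1.57-fold higher in -Dox than in satellite cells, where the groups overlapped (exact permutation p = 0.7). Adjusted over the 4 tests of the balance, these became exact permutation p = 0.267, 0.2 and 0.7. Satellite cells replicate 1 had the lowest ratio of all. Without it the log2 difference between +Dox and satellite cells was 0.957 in place of 1.57, and that between -Dox and satellite cells 0.039 in place of 0.652. Without +Dox replicate 3, which had the highest ratio, the log2 difference was -0.63 in place of -0.918 for -Dox against +Dox and 1.28 for +Dox against satellite cells. With these numbers of libraries no pairwise test could go below 0.1. A test of all 3 groups together, which could reach 0.00357, put 54.4% of the variation between groups (exact permutation p = 0.0893, adjusted 0.2), so no difference in balance passed a test over all 8 libraries. Over the 8 fits that each left out 1 library, that share ran from 43.3% without +Dox replicate 3 (exact permutation p = 0.324) to 66.7% without Satellite cells replicate 3 (exact permutation p = 0.0476), with 63.5% without Satellite cells replicate 1 (exact permutation p = 0.124).

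**Figure D2:**
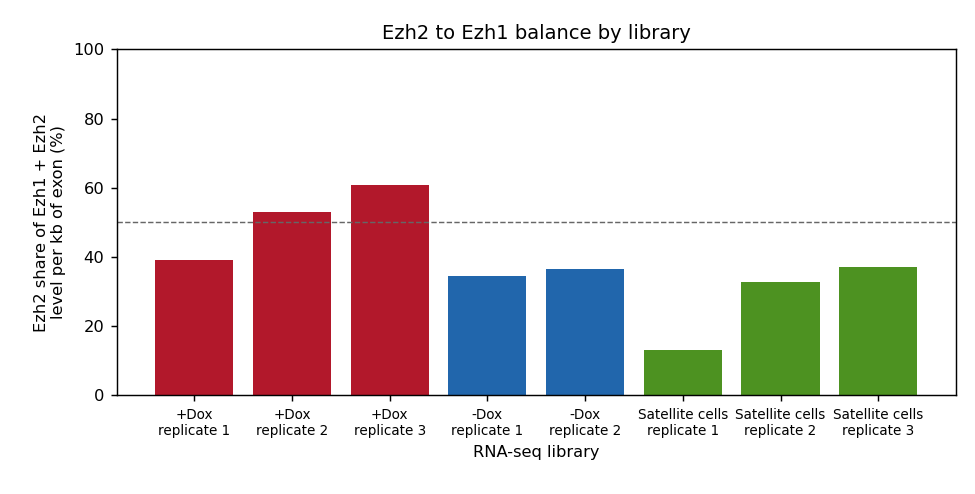
Share of Ezh2 in the summed Ezh1 and Ezh2 level per kb of exon (vertical axis, percent, from 0 to 100) in each RNA-seq library (horizontal axis), with bars colored by group and a dashed line at equal levels. The share was 39.2%, 53.0% and 60.8% in +Dox, 34.6% and 36.5% in -Dox and 13%, 32.8% and 37.0% in satellite cells.

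Against satellite cells, the +Dox cells had more of the maintenance machinery and of Eed and less of Ezh1, Suz12 and Jarid2. Here 3 of 10 members were called higher in +Dox (19.8% of all genes tested) and 3 of 10 lower (25.1%), shares that are to be read against a comparison in which a large part of all genes was called. The median over the members was -0.35, beside -0.17 over all genes tested. Groups did not overlap for 7 of 10 members, beside 56.5% of all genes tested. Both comparisons with satellite cells use the same 3 satellite cell libraries, and they share the iPax7 libraries with the Dox comparison, so they are not independent of each other.

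Uhrf1 was 28.8-fold higher in +Dox than in satellite cells (log2 fold change 4.85 ± 0.535, adjusted p = 0.000143), Dnmt1 6.53-fold (2.71 ± 0.42, adjusted p = 0.000875) and Eed 1.91-fold (0.94 ± 0.216, adjusted p = 0.00694). Each of these calls was kept in every fit that left out a library. Of the proliferation markers, 24 of 28 were also higher in +Dox than in satellite cells, among them Ccnb1, Plk1 and Cdk1 (log2 fold changes 6.24, 5.79 and 5.54), and their part in these differences was not tested.

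Jarid2 was 5.92-fold lower in +Dox than in satellite cells (-2.57 ± 0.333, adjusted p = 0.000331) and kept its call whichever library was left out. Ezh1 was 2.94-fold lower (-1.56 ± 0.451, adjusted p = 0.0198). Without Satellite cells replicate 1 the log2 fold change was -0.93 (adjusted p = 0.0582), and the call was also lost without +Dox replicate 2 (-1.53, adjusted p = 0.0594) or +Dox replicate 3 (-1.34, adjusted p = 0.0655). Without both +Dox replicate 3 and Satellite cells replicate 1 it was -0.71 (adjusted p = 0.0899). Suz12 was 1.68-fold lower, next to the threshold (-0.75 ± 0.274, adjusted p = 0.0496). Its call was kept without Satellite cells replicate 1 and lost without any 1 of the other 7 libraries (log2 fold changes from -0.83 without +Dox replicate 1 to -0.56 without Satellite cells replicate 3, adjusted p up to 0.149). Ezh2 did not pass the test (0.14 ± 0.307, adjusted p = 0.748), nor did Dnmt3a (-0.44 ± 0.268, adjusted p = 0.211). Dnmt3b was 5.58-fold lower in +Dox (-2.48 ± 1.19, adjusted p = 0.117), a difference that missed the threshold although the groups did not overlap.

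Between -Dox and satellite cells, Uhrf1 was higher in -Dox, and Ezh1, Suz12, Jarid2 and Dnmt3b were lower. In this comparison 1 of 10 members was called higher in -Dox (18.1% of all genes tested) and 4 of 10 lower (20.9%), and groups did not overlap for 9 of 10 members, beside 64.3% of all genes tested. The median over the members was -0.27, beside -0.23 over all genes tested. Uhrf1 stayed 2.69-fold higher than in satellite cells (1.42 ± 0.505, adjusted p = 0.049), a call that was kept without Satellite cells replicate 1 and lost without any 1 of the other 7 libraries (log2 fold changes from 1.04 without Satellite cells replicate 3 to 1.64 without -Dox replicate 1). Dnmt1 did not pass the test (0.43 ± 0.438, adjusted p = 0.456).

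Jarid2 was 4.31-fold lower in -Dox than in satellite cells (-2.11 ± 0.381, adjusted p = 0.00235) and was called in every fit that left out a library. Suz12 was 2.71-fold lower (-1.44 ± 0.321, adjusted p = 0.00687), a call lost without -Dox replicate 1 (adjusted p = 0.0627) or -Dox replicate 2 (adjusted p = 0.0724). Ezh1 was 3.01-fold lower (-1.59 ± 0.522, adjusted p = 0.0368), a call lost without +Dox replicate 2 (-1.54), -Dox replicate 1 (-1.45), -Dox replicate 2 (-1.69) or Satellite cells replicate 1 (-0.96). Dnmt3b was lower by 5.08 ± 1.62 on the log2 scale in a fit in which 1 -Dox library had no count (log2 fold change -5.08, adjusted p = 0.0333), and the call was lost without -Dox replicate 2 (-4.04), Satellite cells replicate 1 (-5.00) or Satellite cells replicate 2 (-4.85). Without -Dox replicate 1, which leaves the -Dox library with no count, the fitted value was -11.91, so its size depends on the prior count and is no measure of the fold. Ezh2, Eed and Dnmt3a did not pass the test (log2 fold changes -0.77, 0.22 and 0.34).

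**Figure D3:**
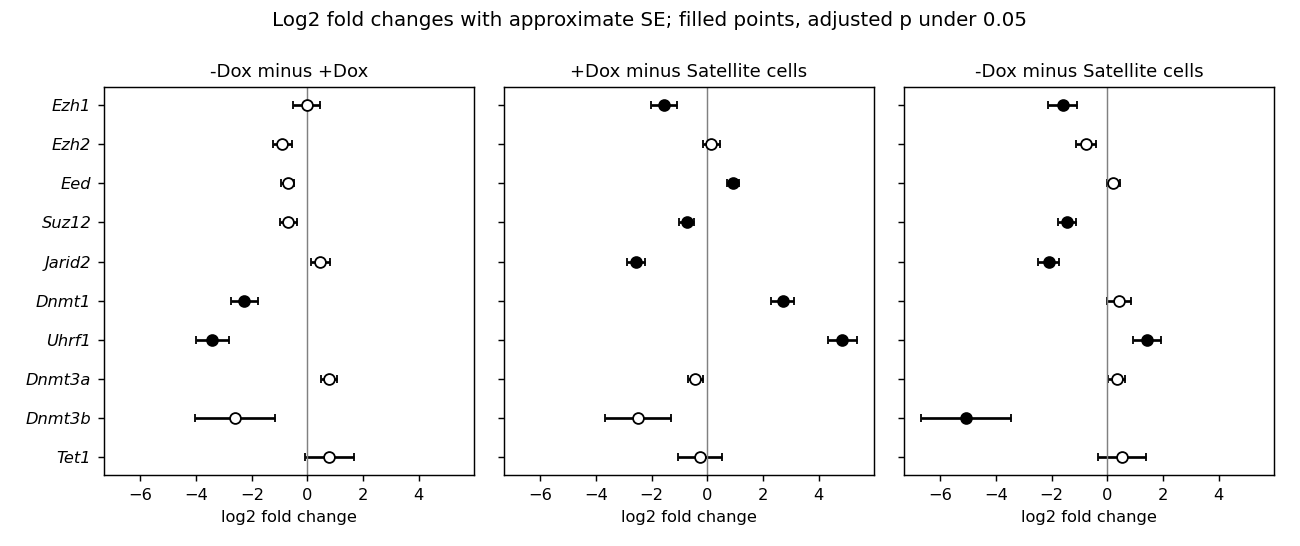
Log2 fold change (horizontal axis) of each of the 10 genes (vertical axis) in 3 comparisons, 1 panel each, with bars for the approximate standard error and filled points for an adjusted p under 0.05. Filled points number 2 for -Dox minus +Dox, 6 for +Dox minus satellite cells and 5 for -Dox minus satellite cells, and those of Uhrf1 reach -3.42 and 4.85 in the first 2 panels.

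Other Polycomb genes were examined as lists, first in -Dox against +Dox, where 7.7% of all genes tested were called. Of 9 further PRC2 subunits and 27 genes of Polycomb repressive complex 1 (PRC1), which ubiquitinates histone H2A, 0 were called by edgeR. At an unadjusted p under 0.05 there were 2 in each list, and DESeq2 called 0 of the PRC2 subunits and 1 PRC1 gene. Of 10 genes for erasers of H3K27 methylation and H2A ubiquitin and their cofactors (among them Asxl and Foxk family members), 0 were called, 0 had an unadjusted p under 0.05 and DESeq2 called 0.

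Between +Dox and satellite cells 44.9% of all genes tested were called (19.8% higher and 25.1% lower in +Dox), and the lists are to be read against that share. Among 27 PRC1 genes 9 were lower and 2 higher (median log2 fold change -0.46, beside -0.17 over all genes tested), among them Cbx7 (-4.12), a chromodomain subunit, and Pcgf5 (-2.82), a partner of the RING subunits. Among the PRC2 subunits 1 of 9 was called, lower in +Dox, Phf1 (-2.48 ± 0.695, adjusted p = 0.0172). Among the erasers and cofactors 6 of 10 were lower and 0 higher, with 1 higher at an unadjusted p under 0.05 and 1 higher by DESeq2. The H3K27 demethylase Kdm6b was measured at 76.3, 96.5 and 182 CPM in +Dox, 150 and 135 CPM in -Dox and 2290, 757 and 2810 CPM in satellite cells, which is a difference of -4.05 ± 0.53 on the log2 scale between +Dox and satellite cells (adjusted p = 0.000348). Its relative Kdm6a (-1.69) and the H2A deubiquitinase Usp16 (-1.73) were also lower in +Dox. The 3 satellite cell libraries were each above all 5 iPax7 libraries for Kdm6b. Between -Dox and satellite cells, 4 of 9 PRC2 subunits, 7 of 27 PRC1 genes and 4 of 10 erasers and cofactors were lower in -Dox, and 1, 2 and 1 were higher, beside 20.9% of all genes tested lower and 18.1% higher.

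Other genes of DNA methylation gave 3 calls of 15 tested after Dox removal. Cdca7, a partner of the remodeler Hells in methylation of heterochromatin, was measured at 63.1, 47.3 and 38.6 CPM in +Dox, 6.47 and 7.98 CPM in -Dox and 7.96, 10.8 and 4.41 CPM in satellite cells, and fell by 2.78 on the log2 scale (log2 fold change -2.78 ± 0.486, adjusted p = 0.00785). All 3 +Dox libraries were above the other 5, as for Dnmt1 and Uhrf1. Gadd45a, a stress-induced gene linked to demethylation, rose from 46.2 ± 23.8 to 139 ± 8.09 CPM (1.58 ± 0.416, adjusted p = 0.0493), and Apobec1, a cytidine deaminase, rose from 0.264 to 2.85 CPM (3.43 ± 0.794, adjusted p = 0.0302). Of 8 readers of methylated CpG, Mbd2 fell from 35.1 ± 5.77 to 14.2 ± 0.168 CPM (-1.30 ± 0.312, adjusted p = 0.0351), and 0 were called higher, with 0 higher at an unadjusted p under 0.05 and 0 higher by DESeq2.

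Between +Dox and satellite cells, 5 of these 15 genes were higher in +Dox and 7 lower, beside 19.8% and 25.1% of all genes tested. Cxxc4, which binds unmethylated CpG, was higher in +Dox (7.17 ± 1.32), and Apobec1 (-6.34 ± 0.857) and Gadd45b (-4.72 ± 0.399), a relative of Gadd45a, were lower. Cxxc4 averaged 17.9 CPM in +Dox and 0.123 CPM in satellite cells, and Apobec1 0.264 and 21.4 CPM. With 1 group near the floor, the sizes of both differences depend on the prior count. Tet2, a relative of Tet1 named here after its values were seen, was measured at 28.7 ± 6.5 CPM in +Dox, 52.0 ± 5.95 in -Dox and 447 ± 167 in satellite cells, a difference of -3.96 ± 0.357 on the log2 scale between +Dox and satellite cells (adjusted p = 5.1e-05). Among the readers, Zbtb4 (-2.30) was lower in +Dox and Zbtb38 (1.80) higher.

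The genes whose levels most resembled those of Ezh1 over the 8 libraries, among 8469 genes with at least 10 CPM on average, were Enpp4 and Scyl2 (Pearson r = 0.969 for each on log2(CPM + 1)), Birc2 and Arhgef2 (0.963 for each) and St5 (0.96). For Ezh2 they were Rad18 and Vars (0.96 for each), Ywhah (0.945), Suclg2 (0.938) and Cherp (0.935). The points are libraries of 3 groups, so these values describe the group pattern as well as the spread within groups.

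Chromatin at the start sites of the 10 genes was examined with the deposited peaks, called on merged replicates (for Pax7, per replicate and then combined), so that a presence or absence has no replicate error. A peak was counted when it reached within 1 kb of any annotated start site of the gene (GENCODE M1 on NCBIM37, the mm9 build of the files). Shares of all genes are over 22035 protein-coding genes, expressed or not, while all 10 members passed the filter on low counts. The members have from 1 (Dnmt1) to 18 (Dnmt3a) annotated starts, so these shares are not like for like. ATAC-seq peaks, which mark accessible chromatin, were present for all 10 genes in iPax7 cells with Dox (64% of 22035 protein-coding genes had one), 12 h (62.1%), 24 h (65.2%) and 3 days (66.5%) after its removal, in myotubes made from iPax7 cells (62.5%) and in satellite cells (59.2%). In C2C12, a mouse myoblast line, all 10 genes had a peak in the myoblasts carrying Pax7-flag (57.6%) and their flag control (56.6%), and 9 of 10 in plain myoblasts (45.7%) and myotubes (55%), where Ezh1 lacked one. The start site of Ezh1 had the weakest peak of the 10 in each of the iPax7 samples with and without Dox and in satellite cells, with a fold enrichment over background of 7.32 in +Dox, 4.62 at 3 days and 4.1 in satellite cells. Uhrf1 and Dnmt1 had a peak at the start site in every ATAC-seq sample. The fold enrichment of the strongest peak at Uhrf1 was 24.6 in +Dox. At 12 h, 24 h and 3 days without Dox it was 13.4, 29.7 and 20.4. At Dnmt1 it was 37.5 in +Dox and 19.3, 39.8 and 30.9 at these times, with no steady fall.

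**Figure D4:**
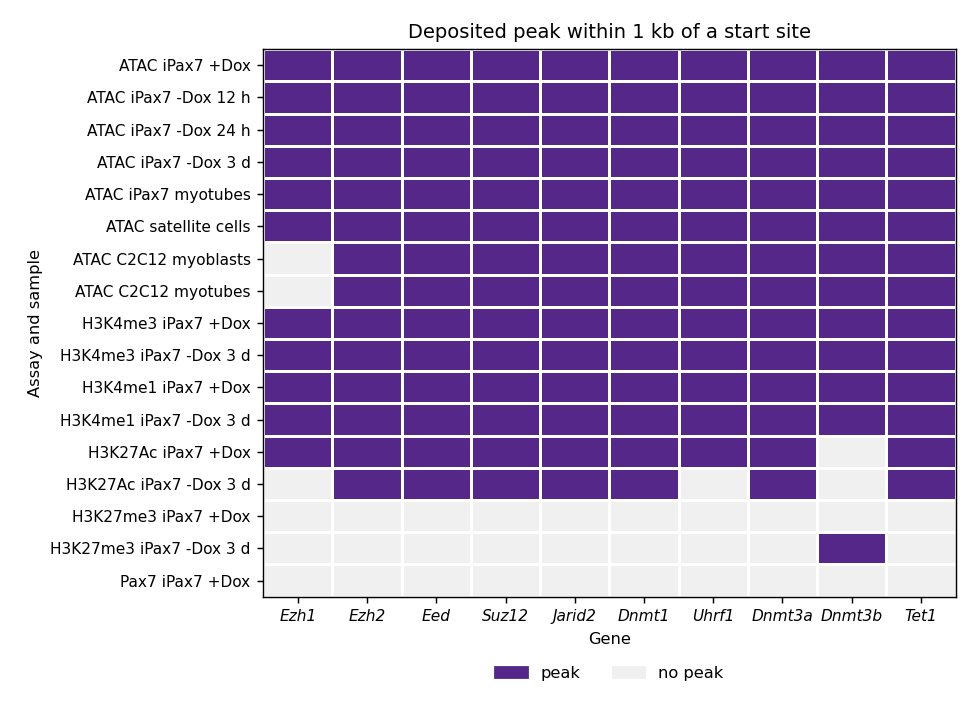
Presence (purple) or absence (grey) of a deposited peak within 1 kb of an annotated start site, with the 10 genes on the horizontal axis and 17 assays and samples on the vertical axis. ATAC-seq, H3K4me3 and H3K4me1 fill all 10 columns in the iPax7 samples, while H3K27Ac covers 9 genes with Dox and 7 without, H3K27me3 covers 0 and 1, and Pax7 covers 0.

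In iPax7 cells H3K27Ac and, without Dox, H3K27me3 separated the genes, while accessibility, H3K4me3 and H3K4me1 did not. H3K4me3, a mark of active promoters, and H3K4me1, a mark of promoter flanks and enhancers, were present at all 10 genes with Dox (60.8% and 62.2% of all genes) and without Dox (66.6% and 65.5%). H3K27Ac, a mark of active promoters and enhancers, was present at 9 of 10 genes with Dox (48.6% of all genes; Dnmt3b lacked it) and at 7 of 10 without Dox (45.7%), where Uhrf1 and Ezh1 lacked it as well. Regions were also counted from 10 kb before the first to 10 kb past the last annotated start, so the window width differs between genes. All H3K27Ac regions numbered 119528 with Dox and 90168 without, and the part of this in the counts was not tested. Around Uhrf1 (7 annotated starts), 8 regions lay in the window with Dox and 0 without, the nearest then being 11.7 kb from a start. Around Dnmt1 (1 start), whose RNA also fell, 9 regions lay in the window with Dox and 8 without. Around Ezh1 (9 starts), 18 regions became 6, and the nearest moved from 0.183 to 1.95 kb. The RNA of Ezh1 passed no test between -Dox and +Dox (-0.035 ± 0.494).

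H3K27me3, the product of PRC2 itself, was called at 0 of 10 start sites with Dox (22.4% of all genes) and at 1 of 10 without (20.5%), that of Dnmt3b, which had the lowest level of the members in those cells. The nearest H3K27me3 region to Dnmt3b lay 4.71 kb away with Dox and 0.429 kb away without. In C2C12 cells H3K27me3 was called at Dnmt3a in the flag control (19.8% of all genes) and at Dnmt3a and Tet1 with Pax7-flag (22.3%). The 2455 Pax7-bound regions of +Dox cells, from which the authors had removed regions also found without Dox, reached 0 of the 10 start sites (1.66% of all genes), and 0 lay inside any of the 10 genes. Distances in kb to the nearest region were 17 (Dnmt3b), 59.8 (Ezh2), 84.5 (Uhrf1), 86.1 (Suz12), 135 (Dnmt3a), 149 (Jarid2) and 159 (Ezh1). For Dnmt1, Eed and Tet1 they were 178, 315 and 327. The share of all genes with a Pax7 region as near ran from 5.19% (Dnmt3b) to 44.4% (Tet1). It was 13.1% for Ezh2, 16.8% for Uhrf1 and 29.4% for Dnmt1.

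Stretches before a RefSeq start are shown for the genes that fell and for both methyltransferases because the peaks above lie on them. The 250 bases before the RefSeq start (promoter table on GRCm38.p6) were placed on NCBIM37 by exact match: Uhrf1 at chr17:56443486-56443735 (plus strand), Dnmt1 at chr9:20757068-20757317 (minus strand), Ezh2 at chr6:47545030-47545279 (minus strand) and Ezh1 at chr11:101087778-101088027 (minus strand). The stretches of Uhrf1, Dnmt1 and Ezh2 lie inside the gene as annotated in GENCODE M1, and that of Ezh1 lies outside. Dnmt1 has 1 annotated start there, base 20757317, so its stretch is the first 250 bases of the annotated gene and not sequence upstream of it. Sequences read 5′ to 3′ towards the RefSeq start, and capitals mark CCAAT and E2F-type letters on either strand, of which the Ezh1 stretch has none.
Uhrf1: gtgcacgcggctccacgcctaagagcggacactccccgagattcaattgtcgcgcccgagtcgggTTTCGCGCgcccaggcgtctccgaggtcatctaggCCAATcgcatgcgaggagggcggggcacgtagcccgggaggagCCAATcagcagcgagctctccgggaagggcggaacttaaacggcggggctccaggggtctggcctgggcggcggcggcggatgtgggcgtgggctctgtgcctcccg
Dnmt1: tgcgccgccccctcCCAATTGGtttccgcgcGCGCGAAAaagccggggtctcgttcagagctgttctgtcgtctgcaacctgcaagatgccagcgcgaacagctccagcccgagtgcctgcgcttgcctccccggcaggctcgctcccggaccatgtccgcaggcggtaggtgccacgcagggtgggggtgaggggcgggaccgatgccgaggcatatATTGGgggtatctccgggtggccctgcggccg
Ezh2: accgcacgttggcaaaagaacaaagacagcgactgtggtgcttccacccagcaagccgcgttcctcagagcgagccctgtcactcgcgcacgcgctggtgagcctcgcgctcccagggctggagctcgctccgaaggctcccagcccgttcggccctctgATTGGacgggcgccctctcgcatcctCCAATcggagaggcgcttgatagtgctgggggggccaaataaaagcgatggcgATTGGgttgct
Ezh1: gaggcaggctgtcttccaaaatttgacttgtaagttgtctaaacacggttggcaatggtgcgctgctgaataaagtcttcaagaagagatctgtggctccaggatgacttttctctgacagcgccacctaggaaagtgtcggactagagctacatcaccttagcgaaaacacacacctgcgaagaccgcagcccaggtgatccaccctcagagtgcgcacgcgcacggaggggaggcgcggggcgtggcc

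E2F-type letters (TTTCCCGC, TTTCGCGC, TTTGCCGC or TTTGGCGC on either strand), the kind of element through which E2F factors drive genes of the replication phase, were searched from 250 bases before to 50 bases after each RefSeq start. They occurred for 4 of the 10 genes (Ezh2, Suz12, Dnmt1 and Uhrf1), for 8 of 23 matched proliferation genes and for 2.6% of 27025 genes. In Uhrf1 the match began 185 bases before the RefSeq start used above. In Dnmt1 1 match began 219 bases before the RefSeq start used above and another at base 34 past it, both inside the annotated gene. In Ezh2 the match began at base 4 past the RefSeq start, beyond the stretch printed, and in Suz12 219 bases before the start. CCAAT, the box bound by NF-Y, occurred for 6 of 10 genes and 41.1% of all genes, and in the Dnmt1 stretch a pair of these boxes on opposite strands overlap. TTTGAA, the core of the cell cycle homology region, occurred for 4 of 10 genes (Eed, Suz12, Dnmt1 and Dnmt3b, in Dnmt1 at its most upstream start) and 20.2% of all genes. The windows of Ezh1, Dnmt3a and Tet1 held none of these letters. A match is a description of the sequence and not of a bound factor.

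RefSeq gives several starts for some members, and the peaks differed between them. Of 3 Dnmt1 starts, the 250 bases before the most upstream one (chr9:20764333-20764582) were overlapped by no ATAC-seq peak in any of the 10 samples. Those before the most downstream start, printed above and inside the annotated gene, were overlapped in all 10. That upstream stretch holds 2 CG dinucleotides, beside 26 in the printed Dnmt1 stretch, 30 in that of Uhrf1, 23 in that of Ezh2, 14 in that of Ezh1 and a median of 6 over all promoters. The printed stretches of Uhrf1 and Dnmt1 were overlapped by H3K27Ac regions with Dox and not without, that of Ezh2 in both conditions and that of Ezh1 in neither. Likewise overlapped with Dox and not without were the stretches before the starts of Suz12 and Tet1. So were those before the other Uhrf1 start and the most downstream Dnmt3a start. The RNA of Suz12, Tet1 and Dnmt3a was not called lower in -Dox. The stretch before the upstream Jarid2 start went the other way, overlapped without Dox and not with it. Of 3 Dnmt3a starts, the most downstream one lay under an ATAC-seq peak in iPax7 and satellite cells and in 0 of the 4 C2C12 samples.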

How the data were processed

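RNA-seq was measured in 8 libraries. Raw counts of reads per gene symbol were deposited by the authors, in the form HTSeq writes. The submitters' processing notes name Trimmomatic 0.32, TopHat2 2.0, Bowtie2 2.2, HTSeq 0.6 and edgeR and the build mm9, and which annotation and strand setting the counting used is not given in the sources used here. Each group is 1 record with 3, 2 or 3 replicate files. Rows that name no gene (9.19% to 9.93% of reads in iPax7 and 25.1% to 32.4% in satellite cell libraries) were left out. One protocol label gives the Dox dose in mg/ml, and the treatment label in µg/ml was used.

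For ATAC-seq the authors deposited the fold enrichment of each peak and its −log10 q-value, made with Bowtie2 2.2.6, Picard and MACS2 2.0.10 on merged replicates. Histone mark and Pax7 regions, called with Qeseq, carry positions alone, and Pax7 regions were kept where found in 2 or more +Dox samples and in no -Dox sample.

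Counts were filtered with filterByExpr, scaled by TMM and tested with edgeR 4.0.16 (quasi-likelihood test, R 4.3.3, Benjamini-Hochberg adjustment over 14836 genes) in 1 fit of all 8 libraries. A call needed an adjusted p under 0.05, and SE is the log2 fold change divided by the root of F. DESeq2 1.42.0, other scalings and filters, 2-group fits, a replicate block and leaving out libraries were alternatives. The script was tested on simulated data. The members and lists were chosen with earlier results of these data known. From each other list, up to 3 called genes with the largest change in -Dox against +Dox, and up to 3 in +Dox against satellite cells, could be named, given at least 1 CPM in the higher group, and some of these are not reported here. For Ezh1 and Ezh2 the 5 most alike genes were named.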

Additional observations from a re-analysis of the deposited data

How the results depend on the processing

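Of 420 member fold changes under alternatives, 366 kept their direction and side of the threshold, 41 lost a call, 4 gained one (Dnmt3b in +Dox against satellite cells, adjusted p 0.0356 to 0.0462) and 9 changed sign. The sign changes, of differences that passed no test, were Ezh1 in -Dox against +Dox (0.009 with DESeq2 and with RLE scaling, and from -0.252 to 0.22 on leaving out libraries), Ezh2 in +Dox against satellite cells (-0.019 to 0.294) and Tet1 in that comparison (-0.862 to 0.69, both over left-out libraries), and Tet1 in -Dox against satellite cells (-0.166 with the replicate block). Genes called in -Dox against +Dox numbered 1142, and 2130 with DESeq2, 2155 with only those libraries and 742 with the replicate block. Leaving out libraries gave 488 (without -Dox replicate 2) to 1700, with 508 without -Dox replicate 1, 674 and 630 without +Dox replicates 1 and 2, and members called ranged from 0 to 2. In -Dox against satellite cells it gave 3204 (without -Dox replicate 1; 3382 without -Dox replicate 2) to 6909 genes and 1 to 4 members, and 3 members with only those libraries. The replicate numbers share no origin in the labels, and same-numbered libraries deviated with r from -0.108 to 0.0835, so the block is no pairing. The balance over 3 groups ranged from 43.3% to 66.7%, and the Dnmt3a to Dnmt3b ratio from 6.64 to 12.7 in +Dox, with 39.5 in -Dox. With windows of 250 bases, H3K27me3 fell on 1 member in C2C12 with Pax7-flag and 0 in iPax7 without Dox, and H3K4me1 on 3 in the C2C12 flag control. The cause was not tested. The joint removal of +Dox replicate 3 and Satellite cells replicate 1 was chosen after seeing the data and left 2, 5 and 4 members called in the 3 comparisons. Dnmt3b, with 0 to 214 reads in iPax7 libraries, is limited by depth.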
